A study of Mus musculus with 18 samples.

Results

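A set of 10 genes of T cell costimulation, checkpoint control and regulatory T cells was followed across the mouse spleen: Cd28, Icos, Ctla4, Pdcd1, Tigit, Lag3, Btla, Foxp3, Ikzf2 and Il2ra. They were taken by gene symbol, and 10 of 10 were found among 19323 distinct symbols. All 10 passed the filter for testing, which asked for 1 FPKM or more in 3 or more libraries and kept 12969 genes. FPKM is a fragment count divided by transcript length and by the library's mapped total. The spleens came from ICR mice aged 10 weeks, and 18 RNA sequencing libraries form 6 groups of 3. HS_AOSFMT mice had high fat diet and streptozotocin (STZ) with a faecal microbiota transplant (FMT) that the labels name for AOS at 10 mg/kg. HS_conFMT mice had the same diet and STZ with a control FMT, HS_AOS mice had them with AOS at 10 mg/kg, and HS mice had them alone. AOS mice received AOS at 10 mg/kg without diet or STZ, and control mice are labelled only as control. The labels do not spell out AOS, the FMT donors or the length of treatment, and do not state that the 3 libraries of a group are separate animals. The p-values therefore measure the spread between these libraries, which may be in part technical.

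A T cell that recognises antigen needs a costimulatory signal, which CD28 gives when it binds CD80 or CD86 on another cell, and which ICOS gives when it binds its own ligand. CTLA-4 competes with CD28 for the same ligands, and PD-1 (Pdcd1), TIGIT, LAG-3 and BTLA are further inhibitory receptors that restrain activated T cells. Regulatory T (Treg) cells, which limit immune responses, depend on the transcription factor FOXP3 and carry much CTLA-4, CD25 (Il2ra) and the transcription factor Helios (Ikzf2). Several of these receptors are not confined to T cells: spleen B cells carry BTLA, natural killer (NK) cells can carry TIGIT and LAG-3, and plasmacytoid dendritic cells can carry LAG-3.

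Cd28, Ctla4 and Icos lie side by side on the plus strand of chromosome 1, from 60716800 (start of Cd28) to 61000320 (end of Icos) in mm10 with GENCODE M21, a stretch of 284 kb, with Ctla4 between them at 60887000 to 60915832. RefSeq promoters (GRCm38.p6), each reaching from 250 bases before the start site to 50 bases after it, were matched for 6 of the genes: Ctla4, Pdcd1, Tigit, Btla, Foxp3 and Il2ra. Foxp3 had 2 start sites, which gave 7 promoters in all. The promoters of Ctla4 and Tigit are shown because these genes had the largest differences between HS_AOSFMT and control spleens, and that of Il2ra because its level stood lowest against T cell genes in HS_AOSFMT. The levels of Ikzf2 and Btla against T cell genes also had their lowest means in HS_AOSFMT. All of these levels are on log2(FPKM + 1), and for Ikzf2, a low gene, the order may depend on the added 1. The windows are chr1:60908775-60909074 on the plus strand, chr16:43664135-43664434 on the minus strand and chr2:11642542-11642841 on the plus strand.
Ctla4: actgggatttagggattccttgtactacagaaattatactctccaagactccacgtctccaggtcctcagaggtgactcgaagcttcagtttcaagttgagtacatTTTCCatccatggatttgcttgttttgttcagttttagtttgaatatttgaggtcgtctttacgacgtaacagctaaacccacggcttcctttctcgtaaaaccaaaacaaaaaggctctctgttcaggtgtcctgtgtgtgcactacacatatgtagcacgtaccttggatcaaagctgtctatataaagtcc
Tigit: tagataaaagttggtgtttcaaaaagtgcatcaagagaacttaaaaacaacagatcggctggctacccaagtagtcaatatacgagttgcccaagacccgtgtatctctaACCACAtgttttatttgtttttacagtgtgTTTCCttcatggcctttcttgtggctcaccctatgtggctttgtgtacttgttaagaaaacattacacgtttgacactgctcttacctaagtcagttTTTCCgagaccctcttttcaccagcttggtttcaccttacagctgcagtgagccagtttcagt
Il2ra: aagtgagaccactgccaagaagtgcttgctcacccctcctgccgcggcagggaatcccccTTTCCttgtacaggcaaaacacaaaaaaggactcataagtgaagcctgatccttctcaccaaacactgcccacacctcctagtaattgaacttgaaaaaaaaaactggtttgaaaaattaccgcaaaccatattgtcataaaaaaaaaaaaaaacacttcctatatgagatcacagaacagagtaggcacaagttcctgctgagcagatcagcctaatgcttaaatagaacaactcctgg
Capitals mark matches to GGAAA, the core that NFAT factors bind, and to TGTGGT, the core that RUNX factors bind, both searched on the 2 strands and here all found on the opposite one, so that they read TTTCC and ACCACA. Ctla4 held 1 GGAAA match, Tigit held 2 with 1 TGTGGT match, and Il2ra held 1 GGAAA match. Of 32851 promoters of the same length, 61.3% held GGAAA and 16.8% held TGTGGT, so such matches are common. The STAT element TTCNNNGAA (8.3% of promoters) and the AP-1 element TGANTCA (7.8%) had no match in these 3 windows. In the other promoters, Pdcd1 held 2 GGAAA matches, Btla held 1 TGTGGT match, and Foxp3 held 2 GGAAA matches at its first start site. At its second start site Foxp3 held 1 GGAAA match that overlaps 1 TTCNNNGAA match.

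Summed FPKM ran from 666441 to 831448 per library, and 12221 to 12898 genes reached 1 FPKM. The files hold no counts, so absolute depth is unknown. T cell markers were present throughout: the 16 markers summed to 848 to 1056 FPKM in HS_AOSFMT, 670 to 922 in HS_conFMT, 594 to 682 in HS_AOS, 616 to 764 in HS, 701 to 777 in AOS and 431 to 723 in control. None of these 16 was at 0 in any library. Of the 18 libraries, control 1 was lowest for 7 of the 10 genes, with neutrophil genes summing to 15486 FPKM there against 816 to 4213 in the other control libraries. HS_conFMT 2 was highest for 6 of the 10 genes. The haemoglobin share of summed FPKM was 12.9% to 17.6% in HS_AOSFMT, 26.8% to 29.1% in HS and 21.5% to 34.4% in control.

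The costimulatory receptors were highest in HS_AOSFMT. Cd28, the receptor for CD80 and CD86, was measured at 18.1, 15.8 and 19.0 FPKM in HS_AOSFMT, 10.7, 15.9 and 13.1 in HS_conFMT, 12.6, 10.7 and 9.82 in HS_AOS, and 12.1, 13.6 and 9.5 in HS. It had 17.8, 13.1 and 16.1 FPKM in AOS, against 6.41, 10.4 and 11.2 in control. The HS_AOSFMT libraries lay above all HS, HS_AOS and control libraries and overlapped with AOS and, by a narrow margin, with HS_conFMT. Icos, an inducible receptor that supports helper T cells in germinal centres, was measured at 11.9, 13.3 and 12.4 FPKM in HS_AOSFMT, 5.88, 11.99 and 8.41 in HS_conFMT, 11.3, 8.23 and 7.08 in HS_AOS, and 8.67, 9.48 and 8.06 in HS. It had 10.2, 9.54 and 9.58 FPKM in AOS, against 5.69, 7.28 and 6.17 in control. HS_AOSFMT and AOS, the highest groups for Icos, did not overlap with each other, and neither did HS and control, the lowest groups by mean.

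Among the inhibitory receptors, Ctla4 had 9.47, 12.6 and 11.3 FPKM in HS_AOSFMT, 5.55, 11.97 and 6.65 in HS_conFMT, 8.34, 6.41 and 5.12 in HS_AOS, and 6.05, 7.83 and 6.49 in HS. In AOS it had 6.02, 6.15 and 6.10 FPKM, against 3.15, 5.29 and 3.20 in control. Control was the lowest group, below every library of AOS, HS and HS_AOSFMT, and a single HS_conFMT library reached the HS_AOSFMT range. Pdcd1, which encodes PD-1, had 5.0, 4.67 and 4.8 FPKM in HS_AOSFMT, 2.45, 5.72 and 2.80 in HS_conFMT, 4.78, 3.22 and 1.30 in HS_AOS, and 3.03, 3.02 and 2.07 in HS. In AOS it had 3.85, 3.71 and 3.56 FPKM, against 1.80, 2.69 and 1.72 in control. The HS_AOSFMT and AOS libraries were tight, with SDs of 0.166 and 0.145 FPKM, against 1.80 in HS_conFMT and 1.74 in HS_AOS.

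Tigit, which competes with the activating receptor CD226 for the ligand PVR, had 7.24, 6.84 and 8.06 FPKM in HS_AOSFMT, 2.74, 7.98 and 2.67 in HS_conFMT, 4.84, 3.56 and 2.37 in HS_AOS, and 4.21, 3.62 and 3.58 in HS. In AOS it had 6.30, 5.12 and 5.92 FPKM, against 2.48, 3.79 and 1.32 in control. HS_AOSFMT stood above AOS without overlap, and AOS above HS, HS_AOS and control. Lag3, a CD4-related receptor for MHC class II, averaged 6.99 ± 2.11 FPKM in HS_AOSFMT, 6.11 ± 4.26 in HS_conFMT, 5.51 ± 1.23 in HS_AOS and 5.43 ± 0.606 in HS (SD, n = 3 each). In AOS it averaged 7.58 ± 1.78 FPKM, the highest group mean, against 3.43 ± 1.06 in control (SD, n = 3 each). Its spread in HS_conFMT came from 1 library at 11.03 FPKM, against 3.54 and 3.77 FPKM in the other libraries of that group.

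Btla, which binds the TNF receptor family member HVEM, was by far the most abundant of the 10 per length of transcript and the least variable. It averaged 87.2 ± 6.4 FPKM in HS_AOSFMT, 77.2 ± 16.0 in HS_conFMT, 75.1 ± 9 in HS_AOS, 67.6 ± 5.63 in HS, 73.4 ± 5.65 in AOS and 70.6 ± 12.8 in control (SD, n = 3 each). Neighbouring groups in that order overlapped in every case.

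Foxp3, which specifies Treg cells, had 6.84, 5.92 and 7.66 FPKM in HS_AOSFMT, 4.28, 8.45 and 5.80 in HS_conFMT, 3.66, 4.94 and 3.13 in HS_AOS, and 4.13, 4.42 and 6.90 in HS. It had 4.73, 4.59 and 4.13 FPKM in AOS, against 1.89, 4.07 and 2.88 in control. HS_AOSFMT lay above HS_AOS, AOS and control without overlap, and overlapped with HS through HS 3. Foxp3 (chromosome X, 7573644 to 7595245) overlaps Ppp1r3f and Ccdc22 on the opposite strand. Whether counting used strand is not given in the sources used here, so reads of these 3 genes cannot be told apart there.

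Ikzf2 averaged 3.29 ± 0.225 FPKM in HS_AOSFMT, 3.28 ± 1.08 in HS_conFMT, 2.70 ± 0.701 in HS_AOS, 2.93 ± 0.581 in HS, 3.08 ± 0.223 in AOS and 1.90 ± 0.596 in control (SD, n = 3 each). Il2ra, the alpha chain that gives the interleukin-2 receptor its high affinity, averaged 3.08 ± 0.346 FPKM in HS_AOSFMT, 3.14 ± 0.773 in HS_conFMT, 3.10 ± 0.501 in HS_AOS, 2.72 ± 0.185 in HS, 3.25 ± 0.540 in AOS and 2.08 ± 0.520 in control (SD, n = 3 each). For both genes the 5 treated groups lay close together, with control as the lowest mean. Unlike the other 8 genes taken by mean, Il2ra and Lag3 had their highest mean in AOS and not in HS_AOSFMT.

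**Figure D1:**
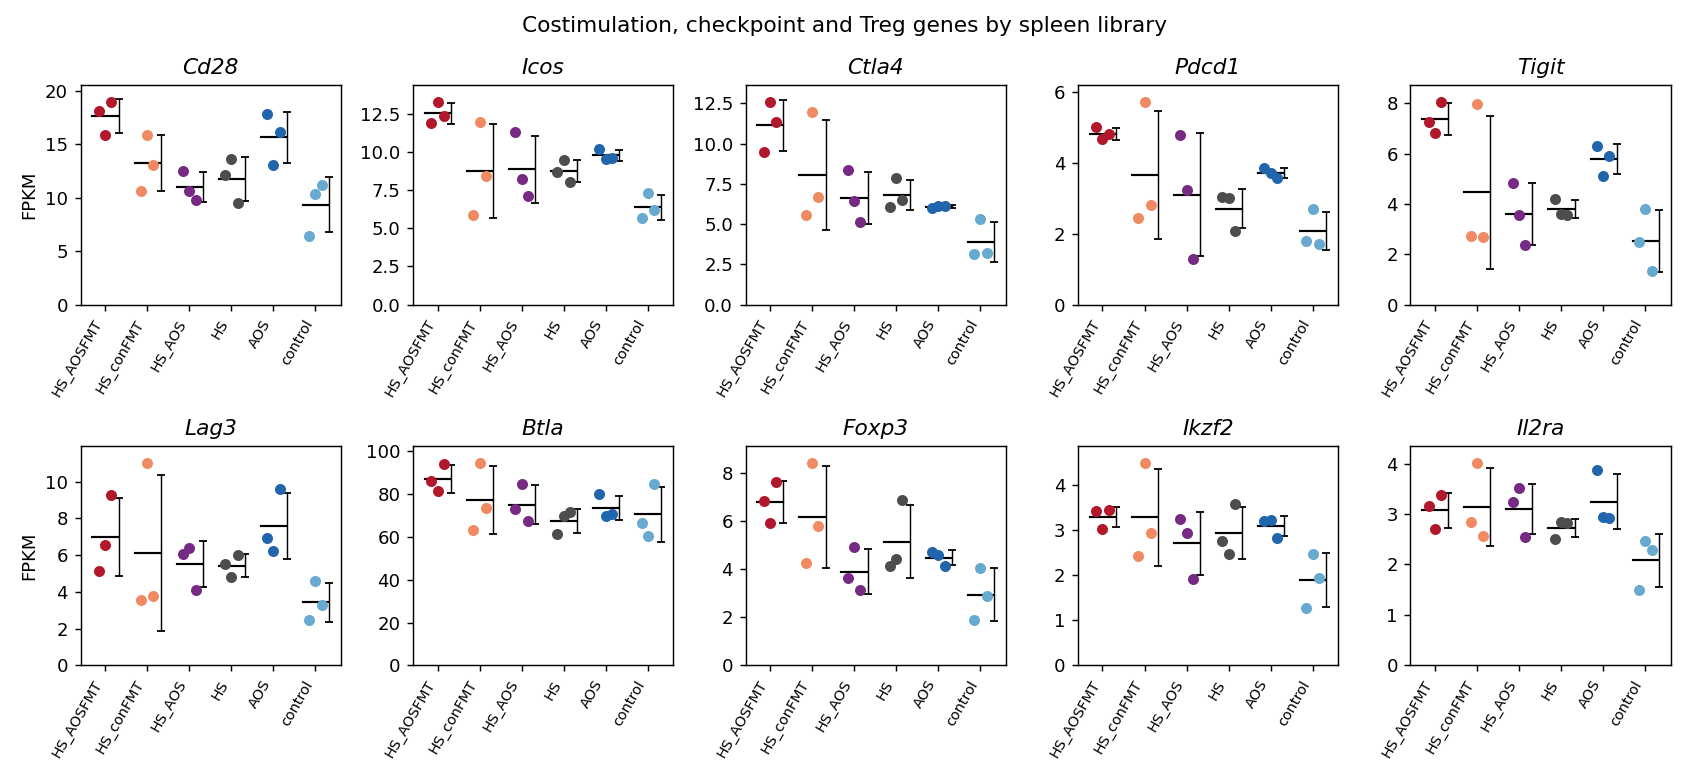
FPKM (vertical axes, each from 0) of the 10 genes in each of the 18 spleen libraries, by group (horizontal axes); points are libraries, horizontal lines are means and bars are SD (n = 3). HS_AOSFMT has the highest mean for 8 genes, control has the lowest mean for 9 (HS for Btla), and 1 HS_conFMT library stands high in most panels, such as Lag3 at 11.03 FPKM.

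HS_AOSFMT against control differed most. High fat diet, STZ and the transplant differ together between these groups, so their parts cannot be told apart here. limma, with Benjamini-Hochberg adjustment over all tested genes and a threshold of 0.05, called 6 of the 10 genes higher in HS_AOSFMT, where it called 9.68% of all tested genes higher and 12% in either direction. Log2 changes here and below are on log2(FPKM + 1), which understates the change of low genes. Ctla4 rose by 1.33 (SE 0.225, adjusted p = 0.00341), Tigit by 1.31 (SE 0.307, adjusted p = 0.0163), and Foxp3 by 1.02 (SE 0.229, adjusted p = 0.0136). Pdcd1 rose by 0.94 (SE 0.279, adjusted p = 0.0418), Icos by 0.88 (SE 0.182, adjusted p = 0.00915) and Cd28 by 0.88 (SE 0.187, adjusted p = 0.01). The other members were not called: the log2 change was 0.84 for Lag3 (adjusted p = 0.086), 0.59 for Ikzf2 (adjusted p = 0.0527), 0.42 for Il2ra (adjusted p = 0.0799) and 0.31 for Btla (adjusted p = 0.148). All 3 HS_AOSFMT libraries were above all 3 control libraries for 9 of 10 genes, Btla being the exception, where this held for 23.3% of all tested genes. The median log2 change was 0.88 over the 10 genes and 0.090 over all tested genes. This comparison was added after values were seen. Cd28, Icos and Ctla4 were called without any 1 of the 6 libraries. Pdcd1 was called in none of these 6 fits (adjusted p 0.0515 to 0.137). Tigit was not called without control 1 (adjusted p = 0.0567), HS_AOSFMT 1 (0.0517) or HS_AOSFMT 3 (0.0654), nor Foxp3 without control 1 (0.066) or HS_AOSFMT 3 (0.0618). Fitted to the 6 libraries of these groups alone, limma called Icos, Ctla4 and Pdcd1. That fit called 174 of all 12969 tested genes. The fits without 1 library called 448 (without HS_AOSFMT 3) to 3381 (without control 3), against 1558 in the main fit.

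HS_AOSFMT against HS, the comparison that bears on the rescue named in the title of the series, had receptors on the higher side without a call. All of the 10 genes but Btla were already higher by mean in HS than in control (median log2 change 0.43). By mean, HS_AOSFMT lay further from control than HS did, not nearer to it. limma called 0 of the 10 genes, where it called 9.23% of all tested genes, and 6 had an unadjusted p under 0.05. Of all 12969 tested genes, 3631 had an unadjusted p under 0.05. The log2 change was 0.80 for Tigit (SE 0.307, adjusted p = 0.106), 0.66 for Pdcd1 (SE 0.279, adjusted p = 0.137), 0.64 for Ctla4 (SE 0.225, adjusted p = 0.0839) and 0.56 for Cd28 (SE 0.187, adjusted p = 0.07). It was 0.47 for Icos (SE 0.182, adjusted p = 0.107) and 0.36 for Btla (SE 0.143, adjusted p = 0.115). For these 6 genes the groups did not overlap, as for 30.8% of all tested genes. Lag3 and the Treg genes overlapped between the groups. The 95% interval of the log2 change was -0.39 to 0.95 for Lag3 and -0.12 to 0.85 for Foxp3. It was -0.26 to 0.53 for Ikzf2 and -0.20 to 0.45 for Il2ra. The median log2 change was 0.42 over the 10 genes and 0.101 over all tested genes. The call depended on which libraries set the spread: limma called all 6 when fitted to these groups alone, and Icos, Ctla4 and Tigit (3 genes) when HS_conFMT 2 was set aside. Those fits called 1461 and 1526 of all 12969 tested genes, against 1197 in the main fit.

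Against the control FMT (HS_AOSFMT vs HS_conFMT), limma called 0 of the 10 genes, 3 had an unadjusted p under 0.05, and 5.85% of all tested genes were called. Of all 12969 tested genes, 2951 had an unadjusted p under 0.05. The log2 change was 0.75 for Tigit (adjusted p = 0.161), 0.52 for Icos (adjusted p = 0.104) and 0.40 for Cd28 (adjusted p = 0.212). The groups overlapped for all 10 genes, while 21.5% of all tested genes were higher without overlap in HS_AOSFMT. Without HS_conFMT 2, limma called 3 genes, with log2 changes of 1.17 for Tigit (adjusted p = 0.0133), 0.75 for Icos (adjusted p = 0.015) and, for Ctla4, of 0.77 (adjusted p = 0.027). That fit called 1201 of all tested genes, against 759 with every library. The median over the 10 genes was 0.34 with all libraries and 0.61 without HS_conFMT 2, and over all tested genes it was 0.062 and 0.104. HS_conFMT against HS gave 0 calls among the 10 genes by limma, 0 with an unadjusted p under 0.05 and 0.00771% of all tested genes called. Of all tested genes, 819 had an unadjusted p under 0.05. The smallest adjusted p among the 10 genes was 0.817, for Btla.

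HS_AOSFMT against HS_AOS, also added after values were seen, compares transplant and direct AOS. limma called 1 of the 10 genes, Cd28 (log2 change 0.64, SE 0.187, adjusted p = 0.0471), where 8.57% of all tested genes were called, and lost that call without any 1 of the 6 libraries (adjusted p 0.0736 to 0.161). The log2 change was 0.90 for Tigit (adjusted p = 0.0804), 0.68 for Ctla4 (adjusted p = 0.0719), 0.68 for Foxp3 (adjusted p = 0.0772) and 0.47 for Icos (adjusted p = 0.115). HS_AOSFMT lay wholly above HS_AOS for these 5 genes, as for 24.4% of all tested genes. Fitted to these groups alone, limma called 4 of them (Cd28, Ctla4, Tigit and Foxp3), and with HS_conFMT 2 set aside it called all 5. Those fits called 1184 and 1333 of all tested genes, against 1111 in the main fit. Without 1 library, 363 (without HS_AOS 3) to 1028 (without HS_AOS 2) were called. The comparisons of HS_AOSFMT with control, HS, HS_conFMT and HS_AOS share the HS_AOSFMT libraries.

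AOS alone against control had 9 of the 10 genes higher without overlap and 0 called. All 3 AOS libraries were above all 3 control libraries for 9 of 10 genes, Btla being the exception, where this held for 11.6% of all tested genes. limma called 0 of the 10 genes, 9 had an unadjusted p under 0.05, and 0.00771% of all tested genes were called. Of all 12969 tested genes, 1471 had an unadjusted p under 0.05. The log2 change was 1.00 for Tigit (SE 0.307, adjusted p = 0.266), 0.96 for Lag3 (SE 0.315, adjusted p = 0.306) and 0.71 for Cd28 (SE 0.187, adjusted p = 0.215). The remaining 6 genes of the 9 had log2 changes of 0.47 (Il2ra) to 0.63 (Pdcd1). The median was 0.56 over the 10 genes and 0.046 over all tested genes. Without control 1 the median over the 10 genes was 0.47, 5 genes had an unadjusted p under 0.05, and Foxp3 was at 0.30 (adjusted p = 0.718), against 0.51 with every library.

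High fat diet and STZ against control (HS vs control) also gave 0 calls among the 10 genes by limma, with 4 at an unadjusted p under 0.05 and 0.0154% of all tested genes called. Of all 12969 tested genes, 830 had an unadjusted p under 0.05. The log2 change was 0.70 for Ctla4 (SE 0.225, adjusted p = 0.605), 0.65 for Foxp3 (SE 0.229, adjusted p = 0.669), 0.45 for Ikzf2 (SE 0.187, adjusted p = 0.744) and 0.40 for Icos (SE 0.182, adjusted p = 0.765). HS lay wholly above control for 5 genes (Icos, Ctla4, Lag3, Foxp3 and Il2ra), as did 3.89% of all tested genes. The median was 0.43 over the 10 genes, against -0.015 over all tested genes, and 0.32 without control 1. Without that library 1 gene, Ctla4, had an unadjusted p under 0.05 (log2 change 0.59), and Ikzf2 was at 0.29. The comparisons of HS, AOS and HS_AOSFMT with control share the control libraries.

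AOS under diet and STZ (HS_AOS vs HS) gave 0 calls among the 10 genes by limma, with 0 at an unadjusted p under 0.05 and 0% of all tested genes called. The 95% interval of the log2 change was narrowest for Btla, at -0.16 to 0.45, and reached its lowest bound for Foxp3 (-0.80 to 0.17) and its highest for Lag3 (-0.67 to 0.67). The difference between the AOS effects with and without diet and STZ was tested as an interaction: limma called 0 of the 10 genes, 6 had an unadjusted p under 0.05, and 0.00771% of all tested genes were called. Of all 12969 tested genes, 774 had an unadjusted p under 0.05. The interaction was -1.10 for Tigit (SE 0.434, adjusted p = 0.739), -0.96 for Lag3 (adjusted p = 0.835), -0.82 for Foxp3 (SE 0.324, adjusted p = 0.739) and -0.79 for Cd28 (SE 0.264, adjusted p = 0.632), on the log2 scale. It was -0.61 for Ikzf2 (adjusted p = 0.804) and -0.55 for Icos (adjusted p = 0.835). A negative value means that the log2 change with AOS was lower under diet and STZ than without them. This covers both a smaller rise and a change of opposite sign. The 6 genes at an unadjusted p under 0.05 became 2 without control 1, 1 with the CD3 level as covariate and 1 with the erythroid level.

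**Figure D2:**
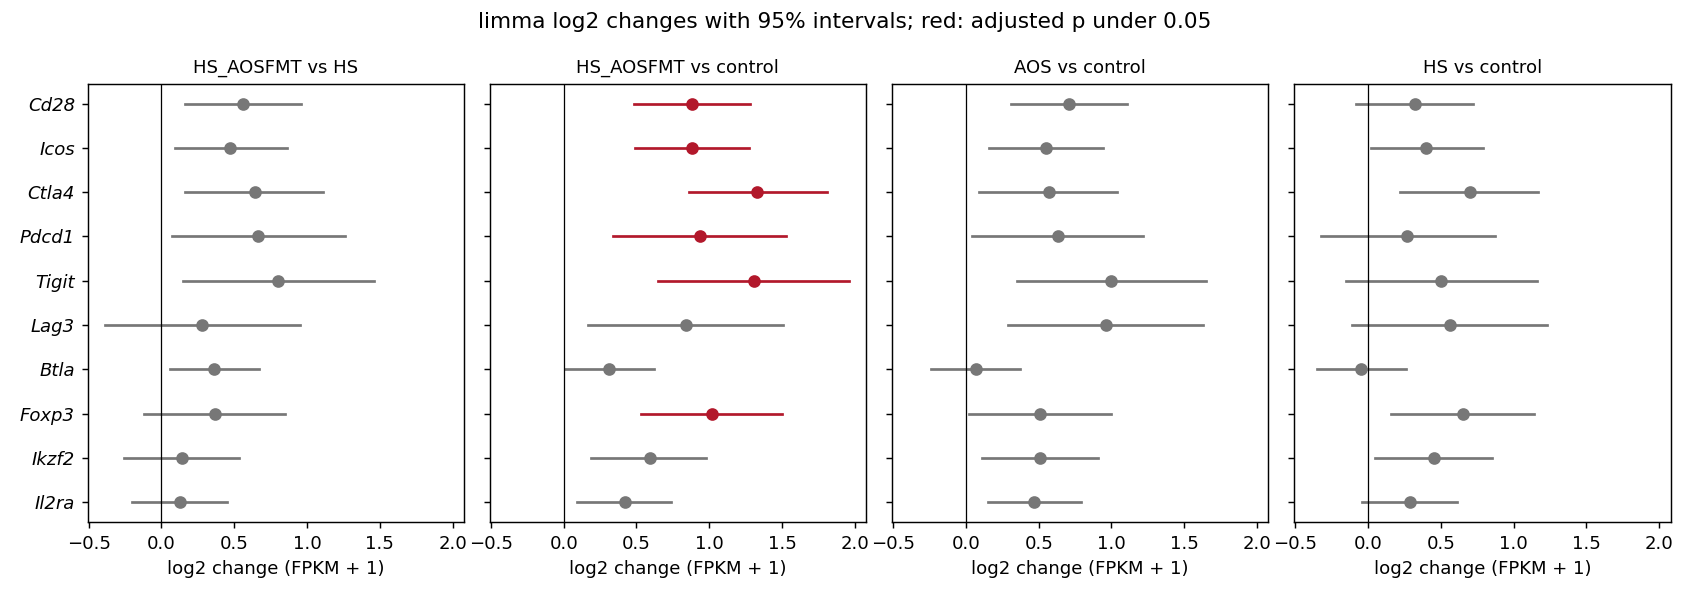
limma log2 changes on log2(FPKM + 1) (horizontal axes) of the 10 genes (vertical axis) in 4 comparisons, each over all 18 libraries; points are estimates and lines 95% intervals, in red where the adjusted p was under 0.05. Red points appear for 6 genes in HS_AOSFMT vs control, where Ctla4 is at 1.33, and in no other panel, while Btla is at 0.31 in that panel.

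T cell genes themselves moved with these receptors. The mean log2(FPKM + 1) of the CD3 genes Cd3d, Cd3e, Cd3g and Cd247, which encode the signalling chains of the T cell receptor, was 5.94 ± 0.136 in HS_AOSFMT, 5.52 ± 0.214 in HS_conFMT, 5.32 ± 0.129 in HS_AOS, 5.36 ± 0.218 in HS, 5.60 ± 0.0730 in AOS and 5.20 ± 0.424 in control (SD, n = 3 each). In HS_AOSFMT vs control, limma called 11 of 16 T cell markers higher (median log2 change 0.72; 12% of all tested genes called), among them Lck, the kinase that starts T cell receptor signalling (114 ± 11.6 FPKM in HS_AOSFMT and 59.2 ± 15.9 in control), and Zap70 (25.1 ± 3.29 and 14.2 ± 3.51). In HS_AOSFMT vs HS it called 5 of 16 (median 0.46; 9.23% of all tested genes called), among them Lat (104 ± 10.9 FPKM in HS_AOSFMT and 65.1 ± 7.37 in HS) and Trat1 (18.5 ± 0.728 and 8.39 ± 3.16). Without 1 of the 6 libraries in turn, the count ran from 2 (without HS_AOSFMT 3) to 15 (without control 3) in HS_AOSFMT vs control, and from 0 (without HS_AOSFMT 1) to 5 in HS_AOSFMT vs HS. With the groups compared alone it was 1 (Lat) against control and 8 against HS. The calls over all 12969 tested genes moved as well. Against control they were 1558 with every library, 3381 without control 3, 448 without HS_AOSFMT 3 and 174 with the groups alone. Against HS they were 1197 with every library, 203 without HS_AOSFMT 1 and 1461 with the groups alone. In whole spleen, fewer cells of a type and less RNA per cell cannot be told apart.

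Set against the CD3 genes, most of the differences were smaller. With the CD3 level as a covariate, limma called 0 of the 10 genes in each of the 9 comparisons, with 0 to 3 at an unadjusted p under 0.05. In HS_AOSFMT vs control, 1 gene then had an unadjusted p under 0.05, the median log2 change was 0.26, and the smallest adjusted p was 0.268, for Ctla4 (log2 change 0.75). Tigit was at 0.88 (adjusted p = 0.422) and Cd28 at 0.18 (adjusted p = 0.642). In HS_AOSFMT vs HS the median was 0.06, with Tigit at 0.47 (adjusted p = 0.6) and Cd28 at 0.01 (adjusted p = 0.969). There 4 members turned negative: Lag3 was at -0.27, Foxp3 at -0.10, and Il2ra and Ikzf2 at -0.26 each. The CD3 level itself differed between these groups, so that the covariate and the group share variation, and the fit also called fewer genes of any kind (36 of all tested genes in HS_AOSFMT vs control, against 1558 without it). With the mean level of 12 erythroid genes as covariate, the median in HS_AOSFMT vs HS was 0.11, with 0 genes at an unadjusted p under 0.05 and the same 4 members negative (-0.21 to -0.07), and that in HS_AOSFMT vs control was 0.58, with 5 genes. With the level of 13 pancreatic acinar genes the medians were 0.23, with 0 genes, and 0.83, with 7 genes.

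**Figure D3:**
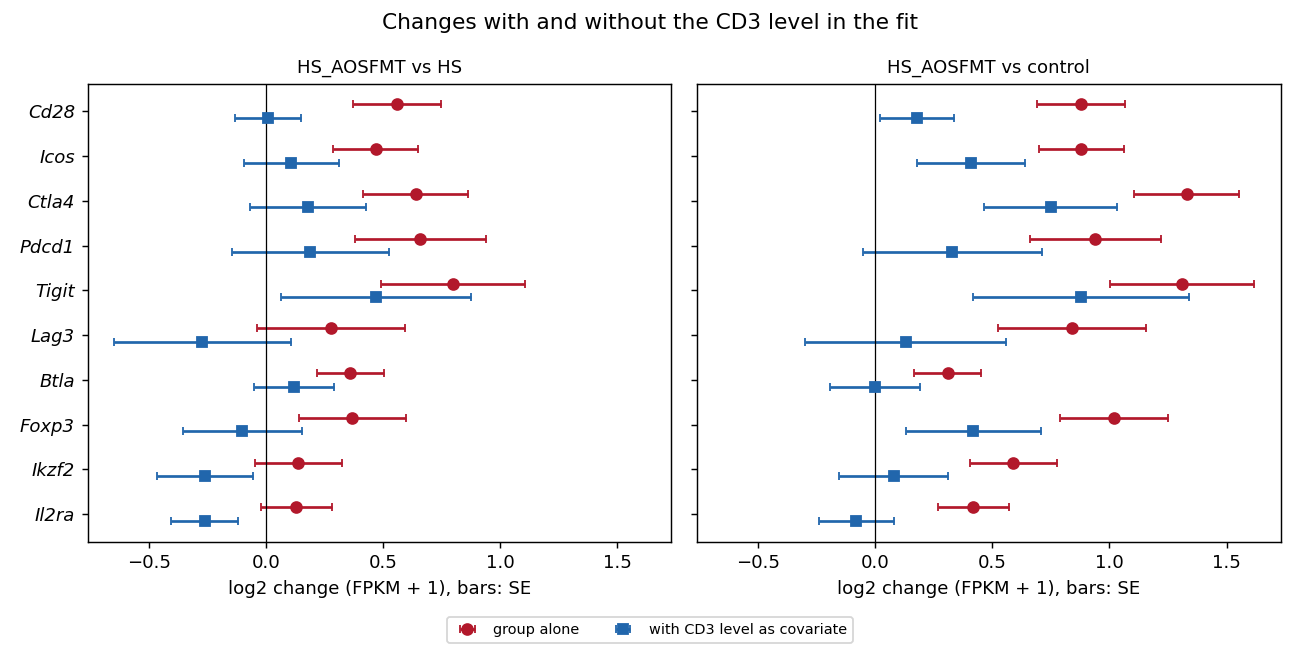
limma log2 changes on log2(FPKM + 1) (horizontal axes) of the 10 genes in HS_AOSFMT vs HS and HS_AOSFMT vs control; red circles are from group alone, blue squares from group with the CD3 level as covariate, and bars are SE. Each blue square lies left of its red circle: in HS_AOSFMT vs control, Tigit is at 0.88 with the CD3 level and 1.31 without it, and Cd28 at 0.18 and 0.88.

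Levels were also set against the CD3 genes library by library. As log2(FPKM + 1) minus the CD3 mean, Cd28 was -1.72 ± 0.0411 in HS_AOSFMT, -1.70 ± 0.0866 in HS_conFMT, -1.74 ± 0.0389 in HS_AOS, -1.70 ± 0.196 in HS, -1.55 ± 0.207 in AOS and -1.86 ± 0.0487 in control (SD, n = 3 each). Cd28 was lowest in control and highest in AOS by mean. On this scale group means were as close together for Icos, at -2.32 (control) to -2.04 (HS_AOS), and for Pdcd1, at -3.59 (control) to -3.36 (HS_conFMT). The 1 added to FPKM shrinks differences of low genes more than those of the CD3 genes. Pdcd1 is such a gene (1.3 to 5.72 FPKM), so its closeness and order of groups may depend on the scale, which was not tested. Il2ra was lowest in HS_AOSFMT on this scale, at -3.91 ± 0.0331, against -3.48 ± 0.12 in HS_conFMT, -3.30 ± 0.137 in HS_AOS, -3.47 ± 0.179 in HS, -3.52 ± 0.122 in AOS and -3.59 ± 0.180 in control (SD, n = 3 each). Ikzf2 and Btla also had their lowest mean in HS_AOSFMT on this scale, at -3.84 ± 0.079 and 0.52 ± 0.0342 (SD, n = 3 each). Ikzf2 is a low gene (1.28 to 4.49 FPKM), so its order of groups may depend on the added 1, which was not tested. By FPKM alone, Ikzf2 was higher in HS_AOSFMT than in control (ratio of means 1.73). The next lowest means were -3.68 for Ikzf2 (control) and 0.61 for Btla (AOS). Ctla4 was at -2.35 ± 0.269 in HS_AOSFMT, -2.40 ± 0.303 in HS_conFMT, -2.41 ± 0.176 in HS_AOS and -2.41 ± 0.0547 in HS, against -2.78 ± 0.0814 in AOS and -2.94 ± 0.395 in control (SD, n = 3 each). The 4 groups with diet and STZ had the higher Ctla4 ratios by mean. These ratios were not tested.

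**Figure D4:**
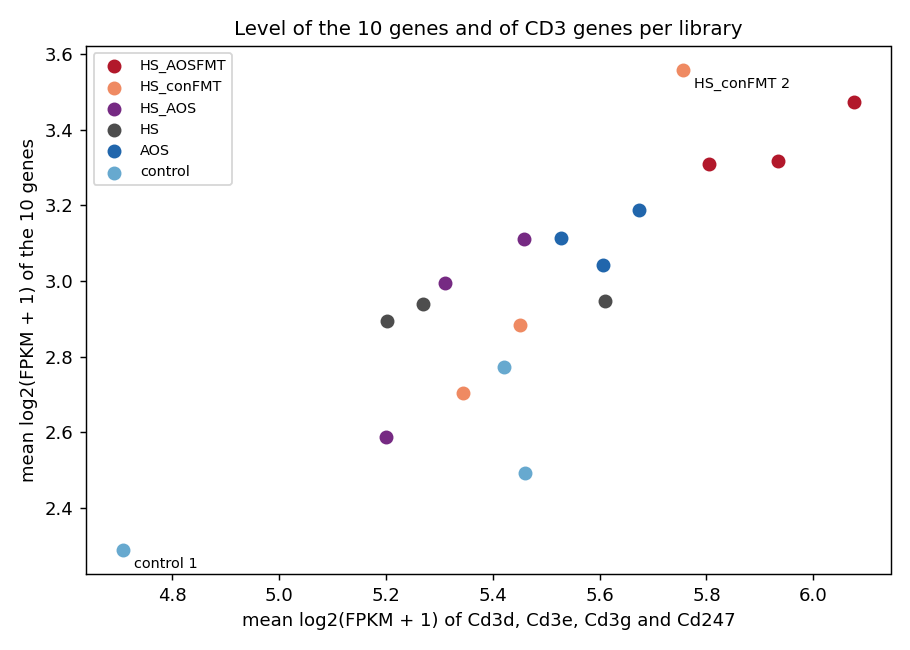
Mean log2(FPKM + 1) of the 10 genes (vertical axis) against that of Cd3d, Cd3e, Cd3g and Cd247 (horizontal axis), 1 point per library, coloured by group. The HS_AOSFMT libraries have the highest CD3 levels (5.80 to 6.08), control 1 is lowest on both axes, and HS_conFMT 2 is highest for the 10 genes.

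Across the 18 libraries, which include the differences between groups, the 10 genes were correlated with each other and with T cell genes to different degrees, given here as Pearson r of log2(FPKM + 1) with no test. Cd28 followed the CD3 mean most closely (r = 0.928, n = 18) and Lag3 least (r = 0.640). Among the 45 pairs, Icos and Ctla4, neighbours on chromosome 1, had the highest r (0.906), followed by Pdcd1 and Tigit (0.899) and by the Treg factors Foxp3 and Ikzf2 (0.897). Btla had the lowest values, with a median r of 0.549 with the other members.

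The genes most like each member by the same measure fell into recognisable classes for some of them. Cd28 was most like Cd3e (r = 0.940), Tcf7, a T cell transcription factor (0.924), and Cd3g (0.911). Ctla4 was most like Cxcl16 (0.941), Bhlhe40 (0.932) and Izumo1r, which encodes folate receptor 4 of Treg and anergic T cells (0.926). Pdcd1 was most like Plekho1 (0.930), Lpxn (0.913) and Tox2, a factor related to TOX (0.912). Foxp3 was most like Irf2bp1 (0.949), Rnf43 (0.928) and Tnfrsf4, the costimulatory receptor OX40 (0.905), and Ikzf2 was most like Tnfrsf4 (0.931), Irf2bp1 (0.900) and Cxcl16 (0.900). Lag3 was most like Tapbpl (0.924), Pfkfb3 (0.919) and Psmb8, an immunoproteasome subunit (0.918). Icos was most like Bhlhe40 (0.908), Tigit like Slc39a7 (0.899), Btla like Tfip11 (0.915) and Il2ra like the adenosine receptor gene Adora2a (0.910). All of these values rest on the same 18 libraries, with control 1 and HS_conFMT 2 at the ends.

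Ligands of the receptors changed in part. Of 12 tested ligand genes, limma called 3 higher in HS_AOSFMT vs control (12% of all tested genes) and 1 in HS_AOSFMT vs HS (9.23%). The count of 1 of 12 against HS is near the share over all genes. Cd86, the ligand shared by CD28 and CTLA-4, was at 45.2 ± 1.51 FPKM in HS_AOSFMT, against 24.7 ± 1.09 in HS (log2 change 0.85, SE 0.146, adjusted p = 0.00525) and 23.1 ± 5.13 in control (log2 change 0.96, adjusted p = 0.00193). Against control, Pvr, the ligand of TIGIT, rose by 0.87 on the log2 scale (6.78 ± 0.969 and 3.31 ± 1.08 FPKM, adjusted p = 0.00553). Cd80 rose by 0.71 (7.37 ± 0.219 and 4.35 ± 1.73 FPKM, adjusted p = 0.0363). Over the 12 ligand genes the median was 0.18 in HS_AOSFMT vs control and 0.24 in HS_AOSFMT vs HS. Cd86 was called in both comparisons without any 1 of the libraries compared, and Pvr in the comparison with control, where the count ran from 2 (without control 1) to 5 (without control 3). With the groups compared alone, 1 was called against control (Cd86) and 3 against HS, and with the CD3 level as covariate 0 were called. Against control the calls over all tested genes were 482 without control 1 and 3381 without control 3. With the groups alone they were 174 against control and 1461 against HS, and with the CD3 level 36 and 75.

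Of 16 other costimulatory and inhibitory receptors, 5 were called higher in HS_AOSFMT vs control (12% of all tested genes) and 3 in HS_AOSFMT vs HS (9.23%). Cd27, a TNF receptor family member on T cells and memory B cells, was at 41.4 ± 4.92 FPKM in HS_AOSFMT, against 24.5 ± 4.14 in HS (adjusted p = 0.0244) and 20.5 ± 4.89 in control (adjusted p = 0.00447). Tnfrsf18, which encodes GITR, a receptor abundant on Treg cells, was at 29.8 ± 3.47 FPKM in HS_AOSFMT, against 16.7 ± 0.677 in HS (adjusted p = 0.0108) and 17.9 ± 3.82 in control (adjusted p = 0.0125). Havcr2, which encodes the checkpoint TIM-3, also on macrophages and dendritic cells, was at 11 ± 0.589 FPKM in HS_AOSFMT, against 6.88 ± 0.947 in HS (adjusted p = 0.0222) and 5.91 ± 1.02 in control (adjusted p = 0.00446). Leaving out 1 library gave 2 (without control 1) to 8 calls (without control 3) against control, Cd27 and Havcr2 among them each time, and 0 (without HS_AOSFMT 1) to 3 against HS. Over all tested genes the calls were 482 without control 1 and 3381 without control 3 against control, and 203 without HS_AOSFMT 1 against HS. With the groups compared alone, 2 were called against control (Havcr2 and Tnfrsf4) and 3 against HS, where 174 and 1461 of all tested genes were called. With the CD3 level as covariate 0 were called.

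Of 16 further genes of the Treg programme, 4 were called higher in HS_AOSFMT vs control (12% of all tested genes) and 2 in HS_AOSFMT vs HS (9.23%), where the count against HS is near the share over all genes. Izumo1r rose by 1.27 on the log2 scale against control (35.1 ± 4.62 and 14.0 ± 2.24 FPKM, adjusted p = 0.00424). The ectoenzymes Entpd1 (CD39) and Nt5e (CD73), which turn extracellular ATP into adenosine, rose against control by 0.66 (14.1 ± 1.96 and 8.58 ± 0.871 FPKM, adjusted p = 0.00744) and 0.78 (11.2 ± 1.08 and 6.17 ± 1.44 FPKM, adjusted p = 0.0331). Satb1, a chromatin organiser of T cells that FOXP3 represses in Treg cells, also rose, to 53.0 ± 2.69 FPKM in HS_AOSFMT, against 24.9 ± 5.52 in HS (adjusted p = 0.00522) and 26.4 ± 9.09 in control (adjusted p = 0.00424). Entpd1, Izumo1r and Satb1 were called against control without any 1 library, and Satb1 against HS. Fitted to the groups compared alone, limma called 1 against control (Izumo1r) and 5 against HS. Those fits called 174 and 1461 of all tested genes. With the CD3 level as covariate 1 gene was called in each comparison, Bach2, which had not been called without it and is named here after its values were seen.

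Of 10 tested genes of the interleukin-2 receptor and its signalling, 4 were called higher in HS_AOSFMT vs control (12% of all tested genes) and 1 in HS_AOSFMT vs HS (9.23%), where 1 of 10 is near the share over all genes. Socs3, a feedback inhibitor of cytokine signalling, was at 21 ± 4.89 FPKM in HS_AOSFMT, against 11 ± 0.648 in HS (adjusted p = 0.0134) and 9.65 ± 1.40 in control (adjusted p = 0.00376). Il2rb, the beta chain shared with the interleukin-15 receptor, rose by 0.63 against control (32.6 ± 1.81 and 21.2 ± 4.98 FPKM, adjusted p = 0.0428). Of 16 genes of CD28 and PD-1 signalling, 2 rose and 1 fell in HS_AOSFMT vs control (12% of all tested genes called). The phosphatase genes Ptpn6 (SHP-1) and Ptpn11 (SHP-2, which PD-1 recruits) went opposite ways against control: Ptpn6 rose by 0.59 (290 ± 22.2 and 195 ± 40.4 FPKM, adjusted p = 0.032), and Ptpn11 fell by 0.25 (27.4 ± 0.193 and 33.0 ± 3.49 FPKM, adjusted p = 0.0439). Against control, Socs3 was the 1 gene of these lists called without any 1 library. In the interleukin-2 receptor list 7 genes were called when control 3 was left out, 2 when HS_AOSFMT 1 was, and 1 when control 1, HS_AOSFMT 2 or HS_AOSFMT 3 was. In the CD28 and PD-1 list 10 were called when control 3 was left out, and 0 or 1 when any 1 of the other libraries was. Over all tested genes, 3381 were called without control 3. Without the other libraries, 448 (without HS_AOSFMT 3) to 990 (without HS_AOSFMT 2) were called. Against HS the interleukin-2 receptor call was lost when HS 1 or HS_AOSFMT 3 was left out. Against control, 0 genes of either list were called with the CD3 level as covariate or with the groups compared alone.

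Other cells that carry these receptors were followed by their own markers. Of 5 tested follicular helper T cell markers, limma called 2 higher in HS_AOSFMT vs control, where it called 12% of all tested genes: Bcl6 (23.4 ± 0.441 FPKM in HS_AOSFMT and 16.1 ± 1.97 in control) and Sh2d1a (14.8 ± 1.30 and 8.13 ± 2.04). Leaving out control 1 left 0 calls, leaving out any 1 of the HS_AOSFMT libraries left 1, and leaving out control 3 gave 4. With the CD3 level as covariate, or with the groups compared alone, 0 were called. Of 9 B cell markers it called 0 in HS_AOSFMT vs control and 0 in HS_AOSFMT vs HS (0 at an unadjusted p under 0.05 in either, and 2 called against control without control 3), with summed levels of 2304 to 2813 FPKM in HS_AOSFMT, 2041 to 2409 in HS and 1623 to 2804 in control. NK markers summed to 107 to 127 FPKM in HS_AOSFMT, 90.6 to 132 in HS and 116 to 140 in control, with 0 of 8 called against control (0 at an unadjusted p under 0.05) and 1 (Klrd1) against HS. The NK count against HS was 1 without HS_AOSFMT 2 and 0 without any 1 of the other libraries of these groups, and the fit to these groups alone called Prf1 in its place. Plasmacytoid dendritic cell markers summed to 162 to 213 FPKM in HS_AOSFMT, 158 to 314 in HS and 114 to 131 in control, with 1 of 6 (Siglech) called against control (0 without control 1, control 2, HS_AOSFMT 1 or HS_AOSFMT 3, and 2 without control 3) and 0 against HS (1 at an unadjusted p under 0.05). Klk1, which is part of these sums, was at 8.21 ± 3.03 FPKM in HS_AOSFMT and 81.7 ± 93.1 in HS (log2 change -2.61, adjusted p = 0.117 by limma). The highest HS sum, 314 FPKM, was in HS 1, which also had the highest pancreatic acinar sum of its group (21001 FPKM). How far the HS sums reflect plasmacytoid dendritic cells was not tested. The log2 change against HS was 0.71 for Siglech, 0.46 for Ccr9 and 0.21 for Bst2, none of them called. Pancreatic acinar genes, foreign to spleen, summed to 3.79 to 55.9 FPKM in HS_AOSFMT, 2381 to 21001 in HS and 10.8 to 2272 in control; 12 of 13 were called lower in HS_AOSFMT vs HS (3 without HS 2, and 0 without any 1 of the other HS_AOSFMT or HS libraries) and 0 of 13 in HS_AOSFMT vs control (0 at an unadjusted p under 0.05). All 12 erythroid genes had negative log2 changes in both comparisons, with a median of -1.0 in HS_AOSFMT vs HS (6 at an unadjusted p under 0.05) and -1.03 in HS_AOSFMT vs control (7). Of all 12969 tested genes, 3631 and 4133 had an unadjusted p under 0.05 in these comparisons. In HS_AOSFMT vs HS limma called 9.23% of all tested genes. The NK count of 1 of 8 is near that share, and the acinar count of 12 of 13 is above it. Of the 12 erythroid genes, 1 was called lower there, also near that share. That call was lost without any 1 of the HS_AOSFMT or HS libraries. Against control 3 were called lower, with 6 without control 3, 2 without HS_AOSFMT 2 and 0 without any 1 of the others. Of 10 neutrophil genes, 0 were called in either, with 0 and 1 at an unadjusted p under 0.05, and 9 were called against control without control 3. Over all tested genes, the fits against control called 3381 without control 3 and 482 without control 1. Against HS, 751 were called without HS 2. The part of these differences in makeup in the results on the 10 genes was not tested beyond the fits with a CD3, erythroid or acinar level.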

How the data were processed

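Whole-spleen RNA was sequenced in 18 libraries of 6 groups, assigned by the treatment label. The authors deposited 1 table of gene-level values with 19326 entries; the unit, FPKM, is not named and was inferred from the deposited values, whose sums varied by 6.14% (coefficient of variation) but, weighted by transcript length, by 1.61%. Bowtie 0.12.2 and build mm10 come per the submitters' processing notes; not given in the sources used here are the counter, annotation and strandedness. Relative depth, from steps between low values of 87 genes, was 0.972 to 1.002, a weak estimate; with no counts, no counting interval is given.

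Each gene's log2(FPKM + 1) was modelled by group in limma 3.58.1 under R 4.3.3, using every library, with trend and robust settings in eBayes. The degrees of freedom were 12 residual and 3.38 prior. Testing was limited to genes that reached 1 FPKM in 3 or more libraries and was two-sided, with Benjamini-Hochberg adjustment within a contrast and a threshold of 0.05. The code was tested on simulated data. For 3 symbols on second lines, both lines were kept, and 26 symbols turned into dates were never named. With 3 libraries against 3, an exact permutation test cannot go below p = 0.1, so none was used.

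All 10 genes are named; from each of 13 further lists, up to 4 genes with the smallest p may carry values, and the 3 most like genes per member. Members and lists were chosen with earlier results of these data known. HS_AOSFMT vs control, HS_AOSFMT vs HS_AOS and the setting aside of HS_conFMT 2 were added after values were seen. Alternatives were a pseudocount of 0.1, no filter, a stricter filter, the groups compared alone, a replicate block, scaling to the 75th percentile, TPM, plain eBayes, CD3, erythroid or acinar level as covariate, HS 1, HS_AOS 1 and control 1 set aside, and each library left out. The values of 1 gene of these lists are not reported here.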

Additional observations from a re-analysis of the deposited data

How the results depend on the processing

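The counts of members called changed as follows. In HS_AOSFMT vs HS the count of 0 became 6 with the groups compared alone, 3 with HS_conFMT 2 set aside and 1 (Ctla4, adjusted p = 0.0453 by limma) with the replicate block. Of all 12969 tested genes these fits called 1461, 1526 and 1453, against 1197 in the main fit. In HS_AOSFMT vs HS_conFMT the members' count ran from 0 to 3 over the fits without 1 library, which called 199 to 1201 of all tested genes. In HS_AOSFMT vs control the count of 6 became 8 with HS_conFMT 2 set aside, 7 with a pseudocount of 0.1, 5 with no filter, 5 with 75th percentile scaling, 4 with the acinar level as covariate, 3 with the groups compared alone, 2 (Icos and Ctla4) with HS 1, HS_AOS 1 and control 1 set aside, 0 with the CD3 level and 0 with the erythroid level as covariate (smallest adjusted p 0.0701), and ran from 3 to 6 without 1 library. In the same order, the calls over all tested genes were 2082, 1546, 1300 (of 18908), 1394, 600, 174, 439, 36 and 120. They ran from 448 to 3381 without 1 library, against 1558 in the main fit. In HS_AOSFMT vs HS_AOS the count of 1 became 4 with the groups compared alone, 5 with HS_conFMT 2 set aside, and 0 with a pseudocount of 0.1, no filter, 75th percentile scaling, TPM, plain eBayes, or the CD3, erythroid or acinar level, and was 0 in all 6 fits without 1 library. With the replicate block 1 gene was called there, Ctla4 (adjusted p = 0.0355) in place of Cd28 (adjusted p = 0.0574). Over all tested genes, the fits with 4, 5 and 1 members called gave 1184, 1333 and 1340 calls, against 1111 in the main fit. The alternatives with 0 members called gave 136 (acinar level) to 1101 (pseudocount of 0.1), and those without 1 library 363 to 1028. Il2ra in HS_AOSFMT vs control turned to -0.08 with the CD3 level, and members of HS_AOSFMT vs HS that had not been called also turned negative with the covariates. The causes were not tested. The members' count in the other 5 contrasts was 0 under every alternative run.

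Replicate numbers are not stated to pair samples. Same-numbered libraries of different groups were correlated on each gene's deviation from its group mean, not on the levels themselves. These correlations ran from -0.366 to 0.487 over 45 pairs, 15 of them over 0.1. By this measure 8 of 18 libraries correlated best with their own number. TPM moved the median of all genes in HS_AOSFMT vs HS to 0.226 and 75th percentile scaling to 0.004, with the members' median at 0.55 and 0.32. In HS_AOSFMT vs control these were 0.209 and -0.047 for all genes, and 1.02 and 0.74 for the members. Depth is unknown, so the precision it gives each member cannot be stated.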
